A study of Drosophila melanogaster with 5 samples.

Results

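The wild-type (WT) transcriptome of the developing indirect flight muscle of Drosophila melanogaster was described at 48 h after puparium formation (APF). Its members are the 3 WT libraries among the 5 libraries of the series, chosen by their titles as replicates 1, 2 and 3 (WT 1, WT 2 and WT 3 below). WT pupae carried the driver Mef2-GAL4, which is active in muscle throughout myogenesis, with no RNAi transgene. The other libraries carried a UAS-M1BP RNAi transgene under the same driver and entered no step. Each library was made from the dorsolongitudinal flight muscles of 6 to 8 pupae kept at 25 °C, which were dissected by hand and pooled, so that a value is a mean over a pool of unstated sex. With 1 group there was nothing to compare it with, and the values below are levels and their spread, without tests.

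The indirect flight muscles power the wing beat of the fly. Their fibres are fibrillar and stretch-activated, and they use muscle protein isoforms that differ from those of the tubular muscles of the legs and the jump muscle. Myoblasts have fused and the first myofibrils have been laid down by mid-pupal life, after which sarcomeres grow and mitochondria acquire the dense cristae that feed flight with ATP. Transcripts for contraction, for the respiratory complexes and for the ribosomes that make both were therefore the groups of interest.

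The 3 libraries held 46606786, 41676901 and 53556469 counts over 17494 genes. Levels are given as TPM, a length-scaled share of transcripts in which the count of a gene is divided by its exon length and scaled so that each library sums to 1000000, so that levels can be set side by side between genes. Since TPM is a share, fewer cells of a type and less RNA per cell cannot be told apart. At a mean of at least 1 TPM, 8069 genes were detected, of which 7614 were protein-coding. These were 55.0% of the 13836 protein-coding genes in the table. The single libraries gave 8094, 8165 and 7817 genes, and 7641 genes reached 1 TPM in all 3. The gene next above this limit was CG14626, with a mean of 1.00 TPM. No count at all was found for 3722 genes. The Y chromosome, whose genes act in the male germline, had 1 of 113 genes over the limit.

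The labelled tissue was checked against its markers. Act88F, the actin of the flight muscle (3R:15439969-15442177, plus strand, dm6), stood at 14959, 12082 and 14055 TPM in WT 1, WT 2 and WT 3, and was the highest nuclear gene of all. TpnC4, the calcium sensor of stretch-activated muscle (2R:5503437-5507866, minus strand), stood at 4518, 4206 and 4763 TPM. Mhc, the myosin heavy chain (2L:16766566-16788766, plus strand), stood at 4397, 3474 and 4467 TPM. For fln, the thick filament protein flightin (3L:19989551-19991220, minus strand), the values were 2753, 1918 and 2554 TPM. By mean TPM these genes held ranks 6, 18, 20 and 50 among all genes. WT 2 was the lowest library for each of them. Mhc is made in many spliced forms, and its level depends on the length used: 4113 TPM with the union of its exons (9058 bases) and 4886 TPM with its longest annotated transcript (7341 bases).

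**Figure D1:**
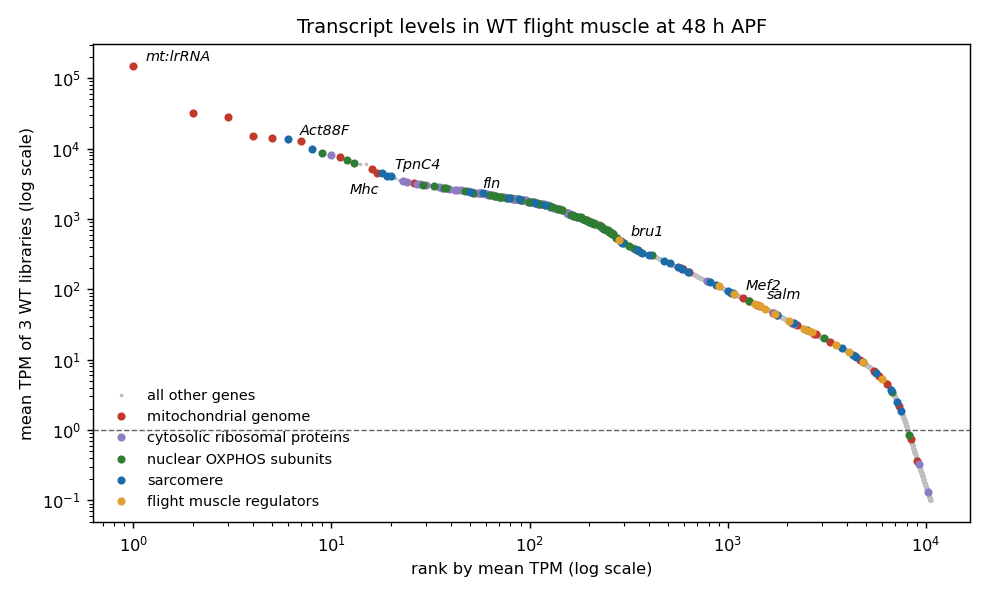
Mean TPM of the 3 WT libraries (vertical axis, log scale) against the rank of the gene (horizontal axis, log scale), with gene groups in colour, other genes in grey and a dashed line at 1 TPM. Genes of the mitochondrial genome hold the first 5 ranks, Act88F is at rank 6, and regulators such as Mef2 and salm lie at levels under 100 TPM.

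A few genes carried much of the signal. The 10 highest genes held 29.4% ± 1.16 (SD, n = 3) of TPM, the highest 100 held 53.8% ± 1.09 and the highest 1000 held 87.3% ± 0.791. The median detected gene stood at 13.0 TPM. Only 186 genes reached a mean of 1000 TPM, and 174 of them were nuclear. When each nuclear gene was assigned to 1 class, 72 of these 174 encoded cytosolic ribosomal proteins, 34 were structural subunits of oxidative phosphorylation (OXPHOS), 21 were other mitochondrial proteins and 11 were sarcomere genes. Glycolysis gave 6 more, and 16 were in none of the lists. The lowest gene of the 186 was 14-3-3zeta, with a mean of 1008 TPM.

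The 25 highest nuclear genes mixed these roles. They held 7 ribosomal protein genes, 5 sarcomere genes, 4 subunits of the ATP synthase and 1 subunit of cytochrome c oxidase, COX5A. After Act88F came Mlc2, the regulatory light chain of myosin, at 10167, 9066 and 10524 TPM. ATPsynC, which encodes the rotating ring of the ATP synthase, followed at 8891, 8105 and 9361 TPM. Outside those roles, eEF1alpha2 (translation elongation) had a mean of 5996 TPM, Gapdh1 (glycolysis) 5962 TPM, porin (the channel of the outer mitochondrial membrane) 3845 TPM, Argk1 (arginine kinase, which buffers ATP) 3584 TPM and uncNacbeta (a nascent chain binding subunit) 2977 TPM. The tricarboxylic acid cycle gave kdn (citrate synthase) at 3280 TPM, Mdh2 (malate dehydrogenase) at 2996 TPM and mAcon1 (aconitase) at 2858 TPM.

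**Figure D2:**
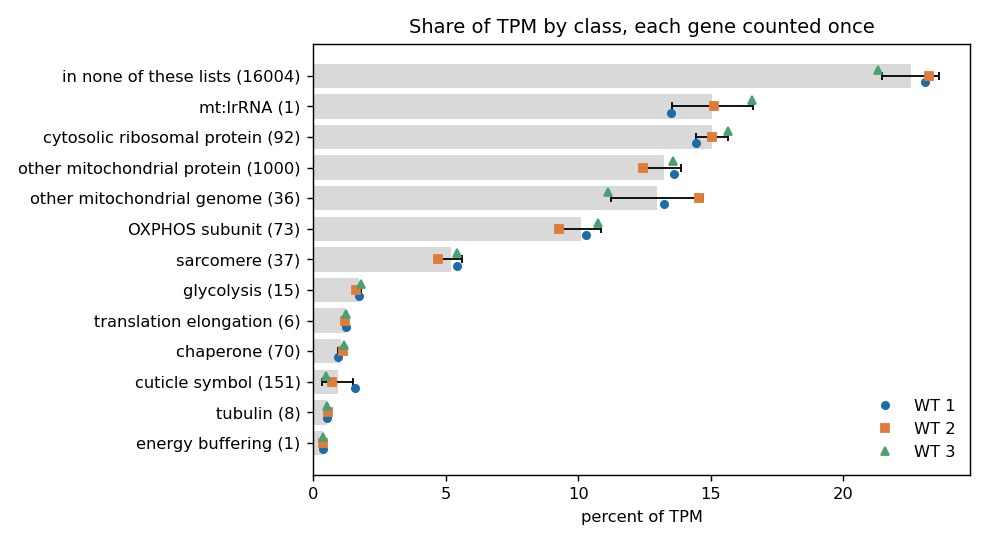
Percent of TPM (horizontal axis) in each class when every gene is counted once, with the number of genes in parentheses. Bars are means of the 3 WT libraries, error bars are the SD, and points are WT 1, WT 2 and WT 3. Cytosolic ribosomal proteins and mt:lrRNA take 15.1% each and sarcomere genes 5.19%.

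All 37 sarcomere genes of the list were detected, and 11 of them passed 1000 TPM. Together they held 5.19% ± 0.410 of TPM (n = 3), and 8.77% of counts, since several of their transcripts are long. The highest 4 members, Act88F, Mlc2, TpnC4 and Mlc1, made up 62.1% of that sum. In the thick filament, Mlc1 (the essential light chain) had a mean of 4116 TPM and Mhc 4113 TPM, a ratio of 1.01 ± 0.0589. Mlc2 was 2.43 ± 0.161 times Mhc. Paramyosin (Prm), which forms the core of the filament, was far lower, at 235, 234 and 232 TPM. Myofilin (Mf) was the lowest member of the role, with a mean of 43.1 TPM.

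Among 6 actin genes, 1 stood far above the rest. Act88F was 54.2 ± 4.09 times Act87E and 178 ± 86.5 times Act57B, actins used in other muscles. Its lead over Act79B, the actin of tubular muscle, was 9.20 ± 3.35 times and differed between libraries, as Act79B itself stood at 1188, 2050 and 1542 TPM. Act79B was thus the second actin, above the cytoplasmic Act5C (312.02, 449 and 329 TPM) and Act42A (108, 133 and 103 TPM). Act57B was the lowest actin in the mean, with 119, 92.4 and 50.6 TPM.

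The troponins showed a similar pattern. TpnC4 was 52.2 ± 12.9 times the next troponin C gene, TpnC41C, which was listed here as a tubular muscle marker and stood at 70.2, 109 and 89.3 TPM. TpnC73F, also listed as such, was at 20.1, 19.4 and 4.72 TPM, with WT 3 apart from the others. TpnC47D and TpnC25D had means of 2.51 and 1.89 TPM. Troponin T (up) and troponin I (wupA) had nearly equal levels, with a ratio of 1.045 ± 0.0249, and TpnC4 was 2.27 ± 0.0640 times up. Of the tropomyosins, Tm2 had a mean of 1693 TPM and Tm1 480 TPM. For Tm1 the order depends on length, since with its longest transcript in place of the union of exons it would stand at 1433 TPM.

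The giant proteins that link thick filaments to the Z-disc and M-line were lower per length. Obsc (obscurin) had values of 396, 448 and 544 TPM, bt (projectin) 138, 195 and 193 TPM, and sls (the titin-like kettin and Sallimus gene) 27.5, 33.8 and 37.3 TPM. WT 1 was the lowest library for these 3, whereas the kinase gene Strn-Mlck, the fourth of the role, was highest there, at 17.7, 7.89 and 7.27 TPM. At the Z-disc, Mlp60A, a LIM protein, led with a mean of 2319 TPM, followed by Actn (alpha-actinin) at 332 TPM, Zasp67 at 310.5 TPM and Zasp52 at 208 TPM. The actin filament length regulators sals and tmod stood at 195 and 127 TPM. Zasp66 was the lowest of the 12, with a mean of 3.66 TPM. Lasp, at 11.6 TPM, shares all its exons with another gene, CG43954, and their counts were the same.

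**Figure D3:**
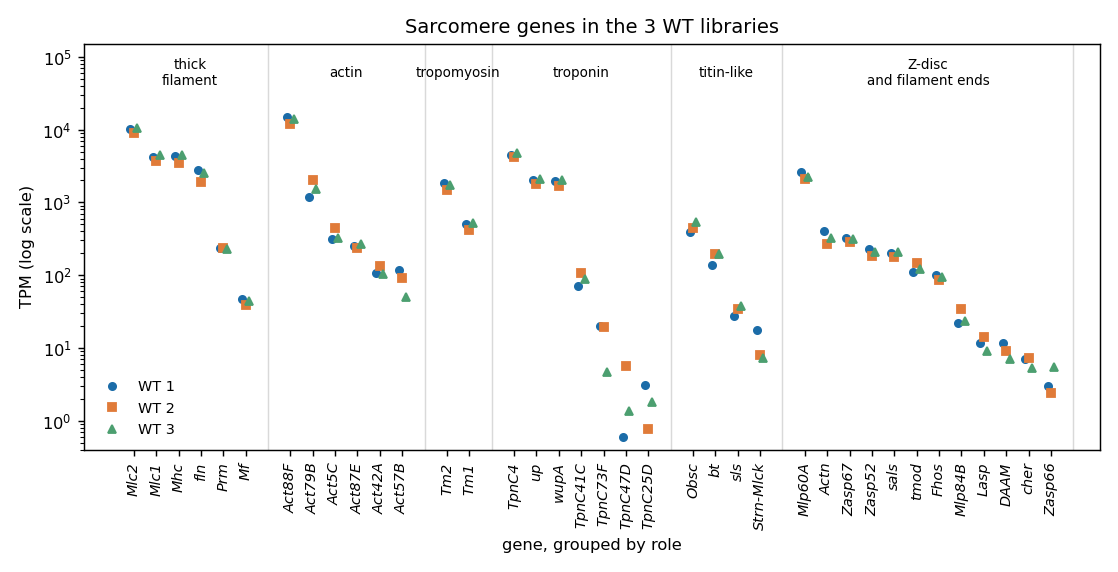
TPM (vertical axis, log scale) of the 37 sarcomere genes in WT 1, WT 2 and WT 3, grouped by role and sorted by mean within a role. Act88F, Mlc2 and TpnC4 lead with means of 13699, 9919 and 4495 TPM, while TpnC47D, TpnC73F and TpnC25D have the most separated points.

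Genes of the mitochondrial genome gave 18.1%, 20.4% and 19.5% of counts in WT 1, WT 2 and WT 3. The Wilson 95% intervals of these shares were 18.1361 to 18.1582, 20.4124 to 20.4369 and 19.4473 to 19.4685. They cover counting error only, and reads are not independent molecules after PCR. The difference between libraries was far wider than these intervals. As a share of TPM the mitochondrial genome held 28.0% ± 1.52, spread over 37 genes of which 35 were detected.

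The RNA of the large mitochondrial ribosomal subunit, mt:lrRNA, was the highest gene of every library, at 134943, 151394 and 165515 TPM. It took 10.6%, 12.1% and 13.2% of all counts and 58.4%, 59.3% and 67.7% of the mitochondrial ones. The RNA of the small subunit, mt:srRNA, stood at only 65.4, 75.7 and 83.2 TPM. The ratio between them was 2018 ± 40.8, with close values in the 3 libraries. Libraries were made from poly(A)-selected RNA, so these values are levels after that selection and not levels in the mitochondrion.

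The 13 protein-coding mitochondrial genes held 11.8% ± 1.52 of TPM, and the 5 highest made up 86.7% of their sum. Subunits of cytochrome c oxidase (Complex IV) held ranks 2, 3 and 5 among all genes, with mt:CoIII at 33553, 36348 and 26322 TPM, mt:CoI at 29914, 32345 and 23311 TPM and mt:CoII at 13711, 15127 and 13353 TPM. Between them lay mt:Cyt-b, the only mitochondrial subunit of Complex III, at 15905, 16656 and 13307 TPM, and mt:ATPase6 of the ATP synthase followed at 12315, 14770 and 11032 TPM. WT 3 was the lowest library for all 5, whereas it was the highest for mt:lrRNA.

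The 7 mitochondrial subunits of Complex I lay lower and apart from each other. mt:ND1, mt:ND4 and mt:ND5 had means of 5198, 4519 and 3259 TPM. mt:ND3, at 1893, 1962 and 3147 TPM, was the only protein-coding gene of the 13 with its highest value in WT 3. mt:ND2 had a mean of 199 TPM, mt:ND4L 174 TPM and mt:ND6 57.1 TPM. From mt:CoIII to mt:ND6 the levels of the 13 genes spanned 562-fold. mt:ATPase8 stood at 55.6, 76.0 and 49.1 TPM although its frame overlaps that of mt:ATPase6. It has only 162 bases. With 200 bases taken off every length (at least 50 left), mt:ATPase8 stood at 156.3 TPM, mt:ND4L at 445 TPM and mt:ND3 at 4295 TPM. The mitochondrial tRNA genes are shorter still, and the highest of them, mt:tRNA:Leu-TAG (7278, 9357 and 6449 TPM) lies directly beside mt:lrRNA and overlaps it, so that their reads may not be told apart.

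OXPHOS joins these mitochondrial products with many nuclear ones in Complexes I to V, of which I to IV move electrons and protons and V, the ATP synthase, uses the gradient. Of 73 nuclear genes listed by the study as structural subunits, 72 were detected, 69 passed 100 TPM and 34 passed 1000 TPM. Their median was 934 TPM, against 13.0 TPM over all detected genes, and their sum was 10.1% ± 0.751 of TPM.

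Levels differed between the complexes. Complex I (NADH dehydrogenase) had a median of 659 TPM over 36 genes, Complex II (succinate dehydrogenase) 956 TPM over 4, Complex III (cytochrome bc1) 1548 TPM over 9, Complex IV 1705 TPM over 10 and Complex V 2048 TPM over 14. Complex II was the tightest, from SdhD at 738 TPM to SdhA at 1076 TPM. In Complex I, 33 of 36 genes lay between ND-MWFE at 303 TPM and ND-ACP at 1353 TPM, a 4.46-fold range. In Complex V the range was 19.5-fold, since ATPsynC, blw (the alpha subunit) and ATPsynbeta had means of 8786, 6912 and 6320 TPM and ATPsyndelta had a mean of only 450 TPM. The catalytic pair was nearly even, with blw 1.09 ± 0.0219 times ATPsynbeta, and blw was 3.35 ± 0.0701 times ATPsyngamma, the central stalk.

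Only 4 of the 73 genes lay under 100 TPM. They were COX7A (60.3, 83.1 and 61.8 TPM), ND-AGGG (16.9, 19.7 and 23.7 TPM), CG40472 (2.52, 2.42 and 5.54 TPM) and ND-B8 (1.42, 0.432 and 0.743 TPM), of which all but ND-B8, the lowest of the list, were picked out after their values were seen. ND-MNLL shares all its exons with CG45089 and their counts were the same, so its level of 907 TPM cannot be assigned to 1 of them.

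Mitochondrial and nuclear transcripts of the same complex differed in level. The median of the mitochondrial genes was 16.7 times that of the nuclear genes in Complex IV, 9.87 times in Complex III (1 gene), 3.54 times in Complex I and 3.12 times in Complex V (2 genes). Single genes went the other way, since mt:ND2, mt:ND4L and mt:ND6 lay under the nuclear median of Complex I, and mt:ATPase8 (60.2 TPM) lay under every nuclear gene of Complex V while mt:ATPase6 was at 12706 TPM. mt:ATPase8 (162 bases) and mt:ND4L (291 bases) are short frames that overlap mt:ATPase6 and mt:ND4 on the same strand. Their values depend on the length used and are not taken as levels of separate transcripts. The Complex V median of 2 genes is uncertain for the same reason. The ratios above are of TPM after poly(A) selection.

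**Figure D4:**
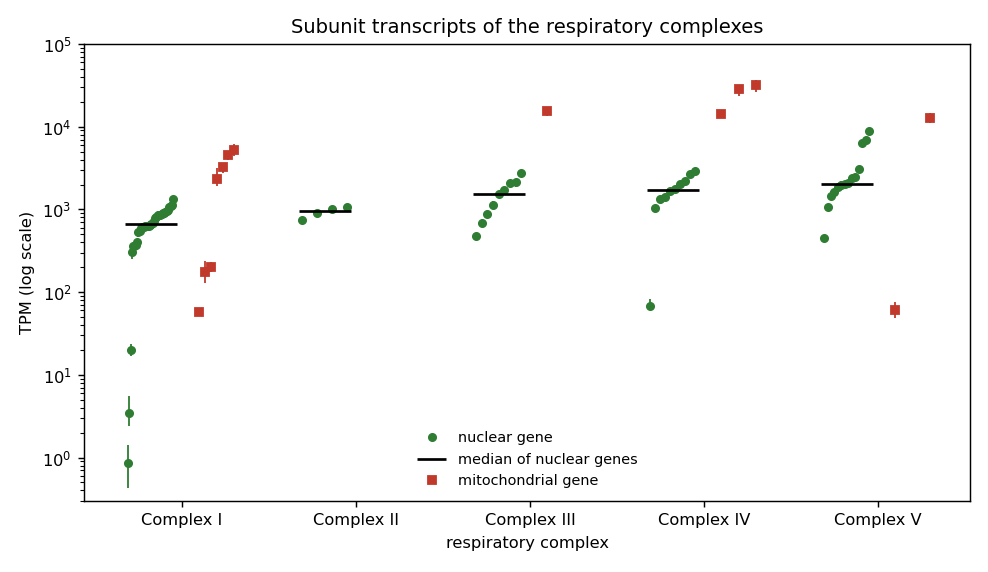
TPM (vertical axis, log scale) of the nuclear (circles) and mitochondrial (squares) subunit genes of each respiratory complex. Points are means of the 3 WT libraries, thin lines run from the lowest to the highest library, and black bars are medians of the nuclear genes. Medians of the nuclear genes go from 659 TPM in Complex I to 2048 TPM in Complex V, and 4 nuclear genes lie under 100 TPM.

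Many OXPHOS promoters carry Motif-1, the element bound by the zinc finger protein M1BP. The study searched the promoters of OXPHOS genes (250 bases before to 50 after the start site, dm6) and listed 79 sites of 18 bases for it, in 79 genes. The 8 letters GGTCACAC were found in 23 of these sites (29.1%) as listed, and their reverse complement in 0. Since sites were read as listed, the 0 gives nothing on their orientation in the promoters. The share over all promoters was not analysed here. The sites below, from 1 to 2 genes of each complex with mitochondrial partners, show how the flanks differ around that core, which is in capitals, 5′ to 3′.
ATPsynC: gttatGGTCACACtgcgc
COX5A: attgcGGTCACACtgcat
COX4: gatgtGGTCACACttctc
RFeSP: agtgcGGTCACACtggtt
ND-ACP: catacGGTCACACtgcta
ND-18: cgcctGGTCACACtggca

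In these muscles the genes stood at means of 8786 TPM (ATPsynC, 3R), 2936 TPM (COX5A, 3R), 1747 TPM (COX4, 2L), 1548 TPM (RFeSP, 2L), 1353 TPM (ND-ACP, 3L) and 621 TPM (ND-18, X). The 15 structural subunit genes whose listed site holds the core ranged from 303 to 8786 TPM with a median of 1146 TPM. The other 58 ranged from 0.863 to 6912 TPM with a median of 906 TPM, so that the ranges overlapped nearly throughout. These 58 include genes with no listed site at all, since only 49 of the 73 structural subunit genes have one. A match of letters is a description and not a site in use.

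OXPHOS assembly factors, the proteins that build the complexes without staying in them, were lower than the subunits. Of 50 such genes in the table, 47 were detected, their median was 114.8 TPM, and none passed 1000 TPM. The highest was CG14757, listed for Complex II, with a mean of 666 TPM. CG15283 (Complex II) and CG31913 (Complex IV) had no count in any library. Mitochondrial ribosomal proteins were even in level: all 72 genes were detected, from mRpL21 at 126 TPM to mRpL12 at 700 TPM, with a median of 266 TPM.

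The wider list of nuclear genes with mitochondrial function (Mito-genes, 1063 genes in the table) had 864 detected members and held 23.2% ± 1.39 of TPM. Oxidative phosphorylation took 11.5% of TPM with 172 genes, translation 3.17% with 192 genes, the tricarboxylic acid cycle 1.93% with 28 genes and import and sorting 1.40% with 61 genes. In the cycle only 17 of 28 genes were detected, and 9 of these passed 1000 TPM, kdn at 3598, 2921 and 3320 TPM being the highest. In fatty acid beta-oxidation all 26 genes were detected, and the highest was Mcad (a fatty acyl dehydrogenase) with 338 TPM. Mitochondrial dynamics was led by Phb2 (prohibitin, 1139 TPM), and replication and transcription by Phb1 (698 TPM) ahead of TFAM, which packages the mitochondrial genome, at 329, 321 and 328 TPM. The lowest medians were those of nitrogen metabolism (0.391 TPM), fructose metabolism (1.88 TPM), mitochondrial carriers (3.504 TPM) and bile acid synthesis (4.95 TPM), and that of mitophagy was 11.5 TPM.

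Energy buffering and exchange was set by a few isoforms. sesB, the adenine nucleotide carrier, stood at 1121, 1001 and 1176 TPM, and was 43.7 ± 9.12 times its neighbour Ant2, with which it shares 102 exon bases. Reads in shared exons were counted for both genes. The counts of Ant2 may thus be partly or wholly reads of sesB, and the ratio is not that of the isoforms alone. Mpcp1, a phosphate carrier, was 4.21 ± 1.05 times Mpcp2. Among 18 genes of glycolysis and glycogen use, 16 were detected, and their sum was 1.84% ± 0.115 of TPM. Gapdh1 led at 5619, 5759 and 6509 TPM, 3.48 ± 0.590 times Gapdh2, followed by Ald1 (aldolase) at a mean of 2578 TPM. The enzymes did not share a level. Pfk, the rate-controlling phosphofructokinase, stood at 25.5, 23.0 and 23.6 TPM, and Hex-A (hexokinase) at 132, 110 and 126 TPM, while Tpi, Eno and PyK had means of 1493, 1278 and 1277 TPM. The glycerol phosphate shuttle was uneven as well, since its mitochondrial enzyme Gpo1 stood at 1324, 1112 and 1382 TPM and its cytosolic partner Gpdh1 at 6.37, 6.90 and 5.41 TPM. Ldh (lactate dehydrogenase) was at 1.73, 4.05 and 2.11 TPM, and Hex-C was at 0.0242, 0 and 0.0416 TPM.

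Cytosolic ribosomal protein genes made the largest nuclear family that was summed, apart from the Mito-genes list as a whole, with 15.1% ± 0.610 of TPM. Of 92 genes with such a symbol, 84 were detected and 72 passed 1000 TPM. RpL41, which encodes the shortest of these proteins, led at 7020, 8463 and 9017 TPM, and with 200 bases taken off every length it stood at 17439 TPM. Below it came RpS27A at a mean of 3417 TPM, RpLP2 at 3311 TPM and RpL23A at 3175 TPM. The detected members reached down to RpLP0-like at 45.7 TPM and RpL7-like at 32.7 TPM. RpL7-like shares 1771 exon bases with CG34164 and their counts were the same, so its level cannot be assigned to 1 of them. RpL37-2 and RpS28a had no count in any library. Elongation followed the same isoform pattern as above, with eEF1alpha2 6.64 ± 1.07 times eEF1alpha1, and eEF1gamma, eEF2 and eEF1beta at means of 1987, 1634 and 1453 TPM.

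Protein quality control genes were uneven as a whole. The proteasome list had 33 of 35 genes detected, a median of 86.5 TPM and no member with a mean over 148 TPM, with Prosbeta5 the highest and Prosalpha1 the lowest. Of 92 chaperone genes of the study's unfolded protein response list, 74 were detected and 8 passed 1000 TPM, with a median of 26.0 TPM. Hsp26, a small heat shock protein, led at 1996, 2792 and 2912 TPM, and the mitochondrial chaperones CG11267 (listed with HSP60, 2029, 1948 and 2067 TPM) and Hsp60A (1959, 1767 and 1787 TPM) came next. The prefoldin complex spanned only from Pfdn2 at 105 TPM to Pfdn4 at 200 TPM. Of the tubulins, alphaTub84B (2582 TPM), betaTub56D and betaTub60D were the main forms, and alphaTub67C and betaTub85D, the forms of the female and male germline, were under 1 TPM in every library.

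Regulators were measured well above the detection limit. All 15 genes on the list of flight muscle fate and splicing factors were detected, with a median of 35.3 TPM. bru1, the RNA-binding protein (Arrest) that directs fibrillar splicing, was the highest at 507, 476 and 516 TPM. E2f1 followed at 113, 107 and 114 TPM, then Mef2, the myogenic transcription factor whose enhancer gives the driver its name, at 88.5, 83.8 and 86.4 TPM. The fibrillar fate genes salm and salr stood at 47.3, 64.9 and 76.1 TPM and at 58.7, 58.5 and 56.4 TPM, and vg at 40.3, 49.1 and 45.4 TPM. ewg was the lowest at 5.60, 5.68 and 4.90 TPM. Rbf, the retinoblastoma family protein, stood at 11.7, 16.1 and 10.6 TPM.

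Genes of the attachment site, which anchor myofibrils to tendons through integrin, were all detected (11 of 11), with a median of 40.6 TPM. Vinc (vinculin) led at 75.9, 79.2 and 83.0 TPM, ahead of the integrin beta chain mys (61.0, 68.2 and 56.6 TPM) and parvin (54.1, 63.9 and 59.3 TPM). rhea (talin) stood at 16.1, 17.7 and 16.8 TPM, and wech, the lowest, at 2.27, 3.56 and 2.82 TPM. In calcium handling, the junction protein jp (364, 416 and 423 TPM) and the pump SERCA (309, 330 and 310 TPM) were ahead of the release channel RyR (119, 142 and 161 TPM). The pump inhibitors SclA and SclB, which share nearly all their exon bases, had means under 1 TPM.

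Myoblast and fusion genes were low: 7 of 10 were detected, with a median of 4.14 TPM. blow and zfh1 were the highest, both at a mean near 13 TPM, while twi, the myoblast transcription factor, stood at 0.348, 0.0499 and 0.0520 TPM. In the ecdysone response, by which steroid pulses time metamorphosis, 11 of 13 genes were detected. Eip78C (142, 189 and 132 TPM), Hr3 (97.7, 109 and 106 TPM), Hr4 (88.6, 118 and 89.8 TPM) and Eip75B (56.1, 76.0 and 51.0 TPM) led, and the pulse genes ftz-f1 and br were under 0.5 TPM in every library. Hr3 shares 6466 exon bases with CG12912 and 6071 with CG46321 on its own strand, so its counts are not its own alone.

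Markers of other cells that a dissection could carry were read in full. Germline and testis markers were near absent, with 0 of 8 genes detected, a summed level of 1.25 to 2.02 TPM and aly at 0 in every library. Of 8 neuronal markers only elav was detected, and their sum was 8.01 to 10.0 TPM. Glial markers summed to 21.8 to 28.0 TPM, with repo at 4.78, 6.02 and 4.46 TPM and 3 of 4 genes detected. Of 6 hemocyte markers 2 were detected, and Pxn, at 15.1, 34.9 and 22.4 TPM, held most of their sum of 18.6 to 38.2 TPM. Hml, the usual hemocyte marker, was under 0.1 TPM in every library, and He had no count in WT 1 and WT 2. Tendon and epidermis markers summed to 12.6 to 23.3 TPM with 3 of 5 detected and Edg84A at 0, and sr, the tendon factor, stood at 6.34, 4.10 and 2.90 TPM. These 5 markers do not speak for cuticle-making cells as a whole. Cuticle genes taken by symbol, described below, summed to 15897, 6991 and 4918 TPM in WT 1, WT 2 and WT 3.

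Fat body and tracheal markers were higher than the cell type markers above. All 7 fat body markers were detected and summed to 169, 147 and 78.0 TPM, with Lsp2, a storage protein, at 68.5, 65.0 and 33.6 TPM. WT 3 was the lowest library for each of the 7. All 6 tracheal markers were detected and summed to 1404, 1378 and 904 TPM. Most of this came from verm (624, 680 and 434 TPM), serp (375, 375 and 259 TPM) and Gasp (345, 256 and 153 TPM), which act on chitin and are made by other cuticle-bearing epithelia as well. The tracheal factors trh (15.2, 20.9 and 15.4 TPM) and btl (20.6, 18.96 and 16.9 TPM) were lower. Tracheal branches enter flight muscle, so that these genes cannot be assigned to a contaminant or to the tissue. Tubular muscle markers summed to 1278, 2178 and 1636 TPM, nearly all of it Act79B. From these values they cannot be assigned to another muscle or to the flight muscle itself.

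The spread between WT libraries was then measured on CPM, counts as a share of the library total (scaled to 1000000, with no length), after trimmed mean of M values (TMM) scaling, over 6445 genes with a mean of at least 5 CPM. The median ratio of the highest to the lowest library was 1.20, and 86.1% of genes stayed within 1.5-fold. A ratio over 2 was found for 367 genes (5.69%), over 5 for 67 and over 10 for 33. Near that limit, CG3568 had a ratio of 2.0023 and fj one of 1.9988. The common biological coefficient of variation from edgeR was 0.203. The share of genes over 2-fold was 9.62% from 5 to 10 CPM, 5.06% from 10 to 50, 4.84% from 50 to 500 and 2.68% above.

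The libraries were not alike in what set them apart. Of the 367 genes, 193 had their highest value in WT 1, 127 in WT 2 and 47 in WT 3, and the lowest value was in WT 3 for 192. Taken in pairs, 262 genes differed over 2-fold between WT 1 and WT 3, 191 between WT 1 and WT 2, and 135 between WT 2 and WT 3. With only 2 libraries, and the filter taken over them, the number fell to 134 without WT 1, 193 without WT 3 and 260 without WT 2, and a ratio over fewer libraries is smaller by construction. Pearson's r of log2(CPM + 1) across these 6445 genes, which are not independent, was 0.975, 0.974 and 0.985 for WT 1 and WT 2, WT 1 and WT 3, and WT 2 and WT 3.

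**Figure D5:**
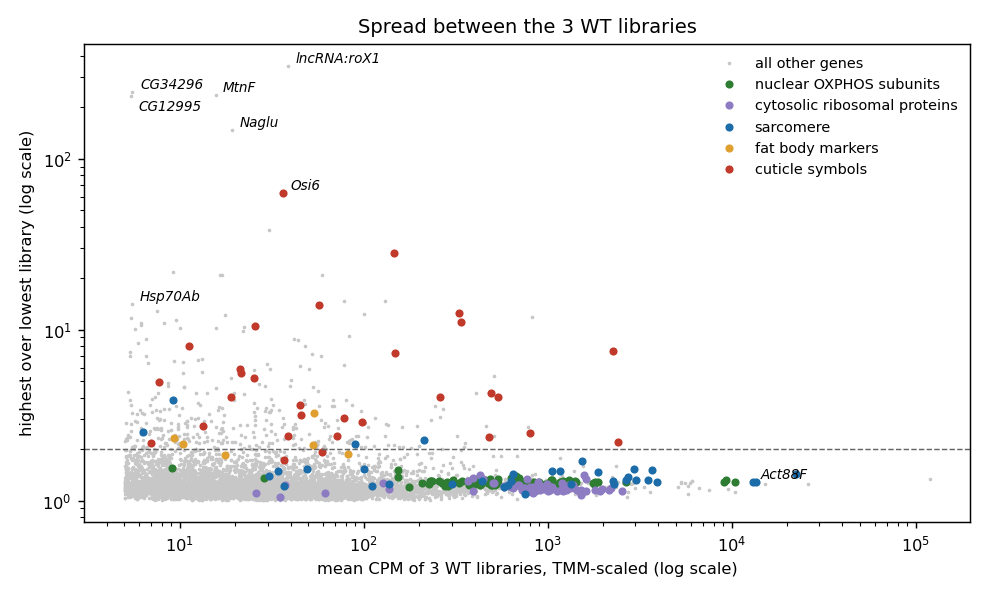
Ratio of the highest to the lowest WT library (vertical axis, log scale) against mean TMM-scaled CPM (horizontal axis, log scale) for 6445 genes, with gene groups in colour and a dashed line at a ratio of 2. Cuticle genes lie mostly above the line and OXPHOS subunits and ribosomal proteins below it, and lncRNA:roX1 has the highest plotted ratio, 350, with counts under 3 set to 3.

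Families differed in spread. None of 71 OXPHOS subunits, 84 cytosolic ribosomal proteins, 72 mitochondrial ribosomal proteins and 33 proteasome genes had a ratio over 2, and their median ratios were 1.28, 1.18, 1.23 and 1.11, against 1.20 over all genes. Of 35 sarcomere genes, 4 (11.4%, against 5.69% of all genes) did: TpnC73F (3.88), Zasp66 (2.50), Strn-Mlck (2.27) and Act57B (2.16). Their median ratio was 1.32, so that the list was wider than all genes by both measures. Of the 71 OXPHOS subunits, 70 were highest in WT 3 and 65 lowest in WT 2. This split depended on the scaling, with 70 highest in WT 3 by DESeq2 size factors, 63 by plain CPM and 57 by TPM. Cytosolic ribosomal proteins were highest in WT 3 for 82 of 84 genes by TMM, and for 63 by plain CPM, while 30 of 33 proteasome genes were so by TMM but 7 by plain CPM. WT 3 was also the highest by TMM for 539 of 798 Mito-genes and 20 of 35 sarcomere genes, but for only 1 of 30 cuticle genes. The share of all genes highest or lowest in each library was not computed. These counts therefore cannot show a shift particular to the OXPHOS subunits or to another list.

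Among genes with at least 3 counts in every library, the highest ratio, 350, belonged to lncRNA:roX1, which coats the male X chromosome in dosage compensation, with 13, 4195 and 998 counts in WT 1, WT 2 and WT 3. lncRNA:roX2, its partner, had 0, 14.2 and 2.59 TPM in the same order, and msl-2, the male-limiting subunit of that complex, 5.33, 11.7 and 4.89 TPM. WT 1 thus had almost no roX RNA, and WT 2 the most. The yolk protein genes Yp1, Yp2 and Yp3, which are made by adult females, were under 1 TPM in every library, and Sxl and tra, which exist in spliced forms of each sex, stood at 12.9 to 16.98 and 5.95 to 9.07 TPM. The median log2 difference of WT 1 from WT 2 was -0.03 over 1105 X-linked genes and -0.01 over 5255 genes on the large autosome arms. As the male X is dosage-compensated, such medians cannot show the sex of a pool. The sex of the pooled pupae was not given, and its part in these values was not tested.

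Cuticle genes were a further group, though only 28 of the 367 genes over 2-fold and 6 of the 33 over 10-fold. They were taken by symbol (Cpr, Ccp, Twdl, Vajk, Osi, Edg, Lcp and Pcp) after their values were seen. Of 151 such genes 30 reached 5 CPM, and 28 of these (93.3%, against 5.69% of all genes) had a ratio over 2, with a median ratio of 4.05. They summed to 15897, 6991 and 4918 TPM, and 24 of the 30 were highest in WT 1 under each of the TMM, DESeq2, plain CPM and TPM scales. WT 1 was also the highest library for 193 of all 367 genes over 2-fold, and the share over all genes was not computed. Without WT 1 the mean share of TPM of the cuticle genes was 0.595% in place of 0.927%. Vajk1 stood at 3523, 476 and 695 TPM, Vajk4 at 4199, 1920 and 1762 TPM, and Osi6 at 97.5, 1.57 and 2.24 TPM. Others went a different way, since Cpr76Bc was at 10.9, 309 and 82.1 TPM and TwdlT at 679, 735 and 155 TPM. Of the 3 detected tendon and epidermis markers, sr (6.34, 4.10 and 2.90 TPM) and vvl (8.96, 8.70 and 5.14 TPM) were highest in WT 1. The third, the epidermal factor grh (7.62, 10.5 and 4.50 TPM), was highest in WT 2.

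Other wide genes of WT 1 were CG12995 (754, 2 and 18 counts), Naglu (2703, 17 and 20 counts), FBgn0033359 (3854, 93 and 387 counts) and CG8736 (1739, 486 and 88 counts). For CG12995 the ratio of WT 1 to WT 2, which had 2 counts, was 348 (exact 95% counting interval 95.9 to 2875). With 1 count in WT 3, CG34296 (87, 642 and 1 counts) had a ratio of 740.4 (exact 95% counting interval 132 to 29289), and its place against lncRNA:roX1 was not resolved. WT 2 was the highest for CG34296, CG13359 (46, 925 and 271 counts) and CG14627 (601, 8198 and 1659 counts). WT 3 was the highest for MtnF, a metallothionein gene (6, 731 and 1510 counts), CG14963 (49, 267 and 570 counts), Ddc, the dopa decarboxylase of cuticle hardening and of neurons (106, 225 and 1147 counts), mre11 (59, 328 and 552 counts) and Hsp70Ab (29, 317 and 435 counts). Hsp70Ab is one of several nearly identical genes, so its uniquely aligned reads are uncertain. Of 66 chaperone genes with at least 5 CPM, 4 (6.06%, near the 5.69% of all genes) had a ratio over 2. Besides Hsp70Ab they were Hsp23 (589, 960 and 1291 TPM) and DnaJ-1 (48.3, 81.5 and 133 TPM), highest in WT 3, and l(2)efl (24.4, 21.0 and 10.8 TPM), highest in WT 1. Of 9 small heat shock genes, 4 were highest in WT 3, 4 in WT 2 and 1 in WT 1.

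Markers of immunity and of fat body also differed between libraries, the first highest in WT 3 as a sum and the second lowest there. The 14 antimicrobial peptide genes summed to 12.4, 12.23 and 38.8 TPM, with DptA at 0.146, 0.560 and 6.95 TPM and Drs at 6.82, 7.59 and 13.8 TPM, so WT 3 was apart. Counts were low (2, 7 and 111 for DptA), and Def was highest in WT 1 and CecB in WT 2. apolpp, the lipoprotein of the fat body, had a ratio of 3.27 and was lowest in WT 3. Of the ecdysone genes, Eip74EF stood at 6.397, 23.1 and 7.99 TPM, with WT 2 apart. Of the 11 genes with at least 5 CPM, 8 were highest in WT 2, but only 2 (18.2%, against 5.69% of all genes) had a ratio over 2. The share of all genes highest in WT 2 was not computed. The labels gave no finer stage, batch or date, and what part staging, dissection or handling had in these differences was not tested.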

How the data were processed

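RNA was poly(A)-selected from dissected flight muscle (per the labels, 100 ng of total RNA, the Illumina Stranded mRNA Prep kit and 13 PCR cycles; the study's methods name a TruSeq stranded kit and another cycle number, which was not resolved) in 3 WT libraries, placed by their titles. The authors deposited raw read counts per gene over exons, with the exon length, from uniquely aligned reads on dm6. The submitters' processing notes name bcl2fastq 2.17.1.14, Subread 2.0.3, featureCounts and DESeq2 1.3.0, with no parameters. Counting used the strand, as read from the table: genes lying at least 90% inside exons of an expressed gene (20 TPM or more) had a median read density 1.00 times that gene on the same strand (146 genes) and 0.00433 times on the other (25 genes). Reads in exons shared by genes of 1 strand were counted for each, and 160 genes had counts identical to such a partner (at least 20 in every library). No column was left unmapped (0). A second deposited table, of the authors' comparison of the groups (fold change, p-value), was read only for gene names and not otherwise used.

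TPM, shares and ranks were computed in Python 3.11.15 (pandas 2.3.3). Library totals were 41676901 to 53556469 counts, at which 1 count in a 1 kb gene is 0.0311 to 0.0397 TPM. The spread used TMM factors and an intercept-only dispersion fit in edgeR 4.0.16 (R 4.3.3), with counts under 3 set to 3 in ratios. These steps were also run on simulated counts, as a check of the code and not of the values given here. Names came from Ensembl 115 (17358 of 17494 identifiers) and the second table. Alternatives were effective length, the longest transcript, TPM without mitochondrial genes, a low-count filter, other scalings (DESeq2 1.42.0 size factors) and leaving out each library. Named were the markers, the 25 highest nuclear genes, mitochondrial mRNAs and rRNAs, the highest 4 and the lowest of each list (any member in lists of up to 15), the genes with the widest spread and those beside a limit. A few further list members are named as examples, chosen after their values were seen. The members and lists were chosen with earlier results of these data known. The OXPHOS, Mito-genes, chaperone and proteasome lists are the study's, and 2 of their genes were not matched. The replicates are separate RNA preparations, and whether they came from separate crosses was not given.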

Additional observations from a re-analysis of the deposited data

How the results depend on the processing

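No paired analysis was possible because there was 1 group and no test. The 8069 detected genes were 8850 at 10 counts or more in every library and 8368 in TPM without mitochondrial genes. Without mitochondrial genes the top 10, 100 and 1000 genes held 10.3%, 38.98% and 82.6% of TPM, sarcomere genes 7.21%, OXPHOS subunits 14.05%, cytosolic and mitochondrial ribosomal proteins 20.9% and 2.74%, and glycolysis 2.56%, as the scale itself is smaller. With effective length the top 100 and 1000 genes held 55.2% and 88.3%, sarcomere genes 4.69%, cytosolic and mitochondrial ribosomal proteins 17.25% and 2.18%, and glycolysis 1.66%. With the longest transcript glycolysis held 1.98%. As shares of counts these families held 8.77% (sarcomere), 7.502% (OXPHOS subunits), 8.24% (cytosolic ribosomal proteins), 1.03% (mitochondrial ribosomal proteins) and 2.43% (glycolysis). The order of sarcomere genes and cytosolic ribosomal proteins thus turned between counts and TPM. The mitochondrial share of counts was 8.38% without mt:lrRNA, and 28.0% as a share of TPM. Genes over 2-fold between libraries were 747 at 1 CPM, 100 at 50 CPM, 362 with DESeq2 size factors and 433 with plain CPM. Leaving out 1 library gave 7996 to 8153 detected genes, top 10, 100 and 1000 shares of 28.9% to 30.0%, 53.4% to 54.4% and 86.9% to 87.6%, family shares of 5.07% to 5.43% (sarcomere), 9.80% to 10.5% (OXPHOS subunits), 14.75% to 15.4% and 1.94% to 2.03% (cytosolic and mitochondrial ribosomal proteins) and 1.79% to 1.90% (glycolysis), a mitochondrial share of counts of 18.8% to 19.9%, 134 to 260 genes over 2-fold, and a common coefficient of variation of 0.172 to 0.217. Of 750 genes recomputed with effective length, 344 moved by more than 1 SD between libraries, as did 155 with the longest transcript. Short genes are the least certain in TPM. Depth limits the lowest named genes, such as ND-B8 (18, 5 and 11 counts), TpnC47D (13 in WT 1), TpnC25D (24 in WT 2) and SclA (10, 51 and 2 counts).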
